A study of Mus musculus with 4 samples.

Results

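S2-like cells of the proximal tubule are single cells of the mouse renal cortex that carried UMIs (unique molecular identifiers, 1 per captured mRNA molecule) of the organic anion transporter genes Slc22a6 and Slc22a8. A barcode was retained as a cell with at least 200 detected genes and at most 50% mitochondrial UMIs. A member was then a retained cell with a summed Slc22a6 and Slc22a8 score of at least 2 UMIs, above its summed UMIs of the S1 genes Slc5a12, Slc5a2 and Spp2 and above those of the S3 genes Slc7a13, Slco1a1 and Lpl. It also held at most 1 UMI of the distal genes Umod, Slc12a1, Slc12a3, Trpm6, S100g, Atp6v1g3 and Atp6v0d2. In the files as deposited, 308 of 1916 retained cells met the rule, and 208 of 1492 did so once each barcode present in 2 files was counted once. The members were selected on the UMIs of these 15 genes, so those genes are given as a description and were taken out of every gene-by-gene fit.

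The cells came from Drop-seq, a droplet method that reads the 3' ends of transcripts, applied to the cortex of 1 kidney from each of 4 mice. The diabetic group was 2 C57BL/6-Ins2Akita/J mice aged 116 and 119 days, and the control group was 2 of their wild-type counterparts aged 45 and 51 days. The Akita allele is a point mutation of the insulin gene Ins2 that kills pancreatic beta cells, so it acts on the kidney from outside the tubule. The housing period in the labels' protocol is longer than these ages, so the ages are given as labelled. Age ran with genotype, and their parts cannot be told apart. The labels do not give sex. A p-value between genotypes in S2-like cells measures the spread between these 4 libraries. A p-value between segment classes measures the spread of class differences within libraries, and each such contrast rests on 2 libraries. The main fits of both kinds had 2 residual degrees of freedom. Their p-values therefore lean on a spread estimated over many genes together, and a very small one does not stand for many mice.

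The proximal tubule reclaims most of the filtered glucose, amino acids, phosphate and bicarbonate, and is divided along its length into the segments S1, S2 and S3. The S2 segment is the main site of organic anion secretion, in which Slc22a6 (OAT1) and Slc22a8 (OAT3) take up drugs, toxins and metabolites from the blood across the basolateral membrane in exchange for dicarboxylates. Cyp2e1 oxidises small foreign compounds, Slc13a3 carries dicarboxylates into the cell and Slc17a3 is an organic anion transporter of the apical side.

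The 4 files held between 1016719 and 1303453 UMIs each. Akita replicate 2 and Wild-type replicate 1 shared 879 cell barcodes, and 0 retained cells carried a barcode of any other pair. The 308 members as deposited stood for 255 distinct barcodes, and 195 of the 308 had a shared barcode (96 in Akita replicate 2 and 99 in Wild-type replicate 1). Each shared barcode was therefore assigned to 1 file, by the ratio of its UMIs in the pair, which put 360 in Akita replicate 2 and 519 in Wild-type replicate 1. Which library such a cell came from is an assumption. The shares, the counts of genes that passed and some named genes are also given without these cells. Most other gene values are given with them only.

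The shared barcodes also gave a repeat reading of the rule. Of 424 retained in both files, 95 were S2-like in each file and 53 in both, which is 55.8% of each. Another 77 were S2-like in exactly 1 file and in no class in the other, 7 were S1- or S3-like in the other, and 0 were distal-like. Membership thus differed between readings of the same barcode in many cells.

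Akita replicates 1 and 2 gave 34 and 67 of the 208 members, and Wild-type replicates 1 and 2 gave 55 and 52. Their median depth was 975.5 UMIs, from 297 to 6549. By library the medians were 1135.5, 957, 1121 and 826.5 UMIs in that order, and the medians of the mitochondrial share were 18.3%, 18.8%, 22.5% and 15.1%. The genotypes overlapped in depth (means of the library medians 1050 ± 126 and 974 ± 208 UMIs, SD, n = 2 each, exact two-sided permutation p = 0.667). With 2 against 2 libraries, this test cannot go below 0.33.

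In CPM, the UMIs of a gene per 1000000 UMIs summed over the members of a library, Slc22a6 stood at 2270, 3160, 2000 and 2560 in Akita replicates 1 and 2 and Wild-type replicates 1 and 2, and Slc22a8 at 360, 475, 408 and 493. Both genes were highest in replicate 2 of each genotype, and the genotypes overlapped. The choosing score ran from 2 to 13 UMIs per cell with a median of 3. Slc22a6 gave 685 of these UMIs and Slc22a8 gave 119. Slc22a6 alone put 130 cells in the class, both genes were seen in 75 cells, and 3 cells entered on Slc22a8 alone. The class is therefore in the main one of Slc22a6-positive cells. No UMI of an S1 gene was seen in 152 of the 208 cells, and none of an S3 gene in 104.

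The class held 10.9% of the retained cells of Akita replicate 1 (95% exact interval 7.69% to 14.9%) and 15.5% of those of Akita replicate 2 (12.2% to 19.3%). For Wild-type replicate 1 the share was 17.9% (13.7% to 22.6%), and for Wild-type replicate 2 it was 11.8% (8.93% to 15.2%). Both genotypes had 1 lower and 1 higher library, and the groups overlapped. The mean was 13.2% ± 3.24 for Akita and 14.8% ± 4.29 for wild-type libraries (SD, n = 2 each), a difference of -1.6 percentage points with an exact two-sided permutation p of 0.667. It was 1 of 9 such comparisons over libraries, whose p ran from 0.33 to 1. With the shared barcodes left out, the shares were 10.9%, 9.26%, 10.9% and 11.8% in the same order. The intervals cover counting error only, and a share of recovered cells also depends on how well each cell type survived dissociation.

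**Figure D1:**
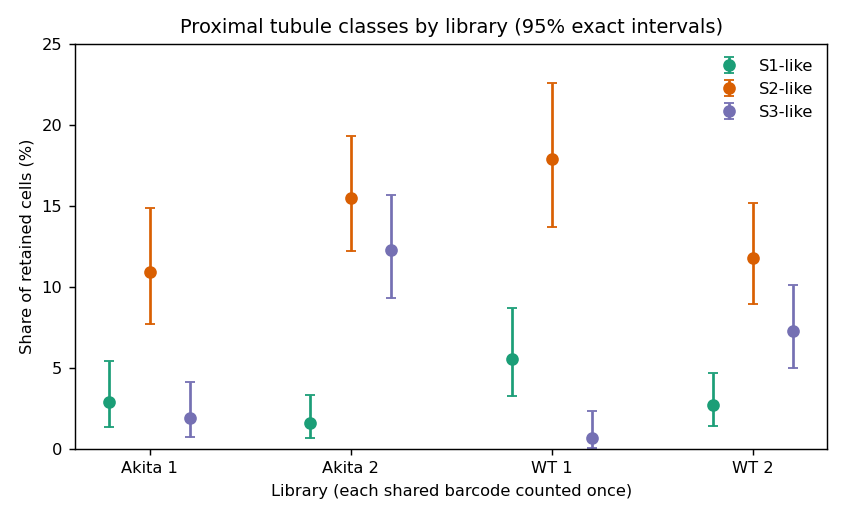
Share of retained cells (y axis, percent) in the S1-, S2- and S3-like classes in each library (x axis), each shared barcode counted once. Points are shares and bars are 95% exact binomial intervals. S2-like shares lie between 10.9% and 17.9%, and neither genotype stands above the other.

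S1- and S3-like cells, chosen by the same rule with the scores exchanged, were fewer, at 45 and 93 cells. S1-like cells numbered 9, 7, 17 and 12 in the 4 libraries and S3-like cells 6, 53, 2 and 32. Of the 3 classes, the S2-like class alone had at least 10 cells in every library.

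The 3 S2 markers that the rule did not use were compared first with distal-like cells, which bears on the proximal part of the name only. Cyp2e1 stood at 1580, 2880, 2350 and 3020 CPM in S2-like cells of Akita replicates 1 and 2 and Wild-type replicates 1 and 2. In distal-like cells (at least 3 distal UMIs, more than all segment scores together) it stood at 316, 85.2, 308 and 549 CPM, below the S2-like level in each library.

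Slc13a3 stood at 1670, 2140, 1490 and 1530 CPM in S2-like cells and at 277, 118, 522 and 234 CPM in distal-like cells. Slc17a3 stood at 901, 1040, 613 and 1100 CPM against 193, 39.3, 93.8 and 154 CPM. For all 3 genes the lowest S2-like library lay above the highest distal-like one. No test was made of this difference.

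To compare at equal depth, each cell was thinned to 500 UMIs, which kept 173 of the 208 S2-like and 275 of 335 distal-like cells. Cyp2e1 was then seen in 61.3% of S2-like cells and 13.8% of distal-like cells, where unthinned shares were 72.6% and 23.3% at median depths of 975.5 and 917 UMIs. Slc13a3 was seen in 59.5% against 11.3%, and Slc17a3 in 39.9% against 5.82%. Distal-like cells should lack these transcripts, so their shares serve as a background, whose source (free RNA, mixed droplets) was not tested. In S3-like cells the thinned shares were 50.6% for Cyp2e1, 37.7% for Slc13a3 and 32.5% for Slc17a3, and in S1-like cells 24.4%, 36.6% and 12.2%. None of the 3 passed against S3-like cells in edgeR's quasi-likelihood test, where Cyp2e1, Slc13a3 and Slc17a3 were at -0.16, 0.60 and 0.01 on the log2 scale. For Kap the thinned shares were 97.7% in S2-like and 94.2% in distal-like cells, close to each other. The choosing genes are given as a description. Slc22a8 was seen in 21.4% of thinned S2-like, 19.5% of S1-like and 6.49% of S3-like cells, so S2- and S1-like cells were close. Slc22a6 was seen in 75.7%, 9.76% and 41.6% of them in that order.

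Markers of other cell types differed in level in the members. All 5 podocyte markers and all endothelial markers in the files were at 0 UMIs. Of the 7 immune markers only H2-Ab1 was seen, with 8 UMIs. The thick ascending limb markers, of which 5 of 7 were seen, summed to 203, 261, 217 and 366 CPM in the 4 libraries, and its defining transporter Slc12a1, which the rule limits, was at 0. The distal convoluted and connecting tubule markers were the highest of the lists outside the proximal tubule, with 7 of 8 seen and sums of 833, 677, 600 and 859 CPM, led by Klk1 (a kallikrein) at 300 CPM over all members, and Trpm6 was at 0. Their part in the results was not tested. Intercalated cell markers summed to 38.3 to 95.4 CPM. These 3 lists include the distal genes that the rule limits: Umod and Slc12a1, then Slc12a3, Trpm6 and S100g, then Atp6v1g3 and Atp6v0d2. Their sums, and the 0 of Trpm6, are thus held down in part by the choice of cells. Red cell markers summed to 67.6, 237, 76.6 and 63.6 CPM. Of the 9 other S3 markers, 6 were seen, with sums of 450, 760, 357 and 573 CPM, led by Atp11a at 389 CPM over all members, and Slc22a7, Cyp7b1 and Bcat1 were at 0.

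Cells just outside the rule also held the unused markers, at lower levels below the score limit but not throughout at the distal limit. The 76 members with a score of exactly 2 had 2500 CPM of Cyp2e1, 1340 CPM of Slc13a3 and 748 CPM of Slc17a3. The 97 cells with a score of 1, no S1 or S3 UMI and at most 1 distal UMI stood just outside, with 1870, 1200 and 594 CPM. The 57 members with a score 1 above the next had 2510 CPM of Cyp2e1, 1570 CPM of Slc13a3 and 1030 CPM of Slc17a3. The 26 cells outside with a tied score had 1810, 1100 and 1020 CPM, so Slc17a3 was nearly the same. On the distal side, the 94 members with 1 distal UMI had 2440 CPM of Cyp2e1, 1700 CPM of Slc13a3 and 870 CPM of Slc17a3. The 58 cells with 2 had 2060, 1660 and 1040 CPM, so Slc17a3 was higher outside. The limit on distal UMIs also removed deep cells, since the 174 cells that failed only that condition had a median of 3486.5 UMIs. Their Cyp2e1 and Slc17a3, at 2640 and 1090 CPM, lay above the 2550 and 908 CPM of all members. Their Slc13a3 was lower, at 1460 against 1730 CPM. Of 485 cells with a score of at least 2, 208 were members.

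The first comparison asks which genes set S2-like cells apart from S1-like cells. S2-like cells had more mRNA for Kap, an androgen-regulated kidney protein, for the drug- and fatty acid-oxidising enzymes Cyp2e1 and Cyp4b1, for the organic cation transporter Slc22a2 and for the fatty acid transporter Slc27a2. They had less of Spp1 (osteopontin), of Gpx3, the secreted glutathione peroxidase made by the proximal tubule, and of Gatm, the first enzyme of creatine synthesis. UMIs were summed per library and class, the 15 choosing genes were taken out, and 1048 genes were tested with edgeR's quasi-likelihood test with the library as a block. Of these, 12 were higher (1.15% of genes tested) and 7 were lower (0.668%) in S2-like cells at a Benjamini-Hochberg adjusted p under 0.05. The balance turned in limma-voom, with 5 higher and 17 lower (11 of the 19 genes in common), and without the filter on low counts it was 27 higher and 1 lower. Because a sum needed 10 cells, both classes were present only in the 2 wild-type libraries, so the contrast rests on them.

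On GRCm38 (GENCODE), Kap spans chr6:133849851-133853762 on the minus strand, Cyp2e1 chr7:140763739-140774987 on the plus strand and Gatm chr2:122594467-122611303 on the minus strand. Kap stood at 25900, 63700, 18300 and 53600 CPM in S2-like cells of Akita replicates 1 and 2 and Wild-type replicates 1 and 2. In S1-like cells it stood at 7420, 8770, 6370 and 8190 CPM. Every S2-like library lay above every S1-like one, also in the Akita libraries, whose 9 and 7 S1-like cells did not enter the test. The log2 difference was 2.11 ± 0.29 (SE; edgeR adjusted p = 3.94e-10). Within the S2-like cells, Kap was low in replicate 1 and high in replicate 2 of both genotypes. Its distal-like level, 7100, 6160, 5180 and 11500 CPM, was near that of S1-like cells.

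Cyp2e1 stood at 285, 585, 871 and 936 CPM in S1-like cells, against 1580 to 3020 CPM in S2-like cells. The ranges did not overlap, and the log2 difference was 1.59 ± 0.34 (edgeR adjusted p = 0.00117). Cyp4b1 stood at 1780, 3170, 1390 and 3530 CPM in S2-like and 666, 1320, 779 and 702 CPM in S1-like cells, a log2 difference of 1.56 ± 0.35 (edgeR adjusted p = 0.00241). Both belong to the cytochrome P450 list, of which 8 of 25 members were tested. Of these, 2 passed as higher and 0 as lower (1.15% and 0.668% over all genes). Its median log2 difference was 1.09, against 0.02 over all genes tested. That median includes Cyp2d12 and Cyp2j13, which had 0 and 1 UMIs in the tested S1-like sums. Cyp2j5, an epoxygenase that makes lipid mediators, stood at -0.04 ± 0.35 and Cyp4a10, a fatty acid hydroxylase, at 0.62 ± 0.58, neither past the threshold.

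Slc22a2 (OCT2), which takes up organic cations from the blood, stood at 653, 1130, 613 and 1030 CPM in S2-like cells. In S1-like cells it stood at 190, 439, 229 and 156 CPM, on 2, 3, 5 and 2 UMIs. The ranges did not overlap, and the log2 difference was 1.87 ± 0.52 (edgeR adjusted p = 0.033). It was the 1 of 14 tested members of the organic anion and cation transport list that passed (1.15% over all genes passed as higher), with a list median of 0.46. The S2 markers Slc13a3 and Slc17a3 were at 1.11 ± 0.35 and 0.72 ± 0.42 (edgeR adjusted p = 0.0656 and 0.519), and the urate transporter Slc22a12 was at 0.88 ± 0.43 (edgeR adjusted p = 0.394).

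Other genes of metabolism were higher in S2-like cells. Slc27a2, which brings fatty acids into the cell and activates them, was at 1280, 1400, 1150 and 2070 CPM against 571, 146, 504 and 624 CPM (log2 difference 1.34 ± 0.38, edgeR adjusted p = 0.033). It was the 1 of 14 tested genes of fatty acid oxidation and peroxisomes to pass (1.15% over all genes passed as higher). Acadm and Acadl of that list were at 0.86 and 1.13 without passing. The carboxylesterases Ces1f and Ces2c, which split esters and amides, rose by 1.69 ± 0.46 and 2.19 ± 0.64 on the log2 scale (edgeR adjusted p = 0.0252 and 0.04). They were the 2 of 21 tested members of the conjugation and carboxylesterase list to pass (1.15% over all genes passed as higher). The median of that list was 0.42. Napsa, an aspartic protease of lysosomes, stood at 698, 866, 715 and 700 CPM in S2-like cells against 0, 0, 275 and 0 CPM, on 6 UMIs in all, in S1-like cells (1.94 ± 0.56, edgeR adjusted p = 0.04).

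Csad, Selenop, Cndp2 and Gm45792 also passed as higher, on 0 to 3 UMIs in the tested S1-like sums. Csad, an enzyme of taurine synthesis, had 29 UMIs in S2-like and 0 in S1-like sums, at least 2.37-fold higher (floor of 3 UMIs over the group). The ratios of CPM were 16.4 for Selenop (95% counting interval 2.85 to 659), a selenium carrier, 7.52 for Cndp2 (2.49 to 37.1), a dipeptidase, and 6.46 for Gm45792 (2.13 to 32). In the untested Akita libraries, S1-like cells of Akita replicate 2 held more Selenop (877 CPM, on 6 UMIs) than S2-like cells (593 CPM), and with the files as deposited Selenop did not pass (log2 difference 0.75, edgeR adjusted p = 0.246). For Cndp2, 10 of 45 S1-like cells over all libraries carried a UMI (22.2%, against 48.1% of S2-like cells). With 3 UMIs in the tested sums, most of those 10 cells came from the Akita libraries, so its ratio describes the wild-type libraries only.

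Among the genes lower in S2-like cells, Gpx3 stood at 14900, 12000, 18600 and 11700 CPM against 28100, 31000, 27100 and 38000 CPM in S1-like cells. The ranges did not overlap, and the log2 difference was -1.13 ± 0.25 (edgeR adjusted p = 0.00175). Spp1, a secreted phosphoprotein, stood at 225, 107, 370 and 191 CPM against 666, 292, 962 and 1090 CPM (-1.91 ± 0.42, edgeR adjusted p = 0.00166). The S1-like level was the higher one within each library, though the ranges overlapped. Distal-like cells held 790 to 1950 CPM of Spp1, above every S2-like library. The part of distal RNA in the S1-like level was not tested.

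Gatm stood at 1580, 1420, 1630 and 970 CPM in S2-like against 4000, 3220, 2060 and 3200 CPM in S1-like cells (-0.96 ± 0.27, edgeR adjusted p = 0.033). Its list, amino acid catabolism and creatine synthesis, had 13 tested members with a median of -0.44, and Gatm alone passed (0.668% over all genes passed as lower). Apoe, a lipid carrier, was at -3.80 ± 0.99, on 8 UMIs in S2-like and 19 in S1-like cells over all libraries (edgeR adjusted p = 0.0173). Gm2a, a lysosomal lipid-binding protein, and Metap2, a methionine aminopeptidase, were at -1.99 ± 0.57 and -1.63 ± 0.48 (edgeR adjusted p = 0.033 and 0.04), but in Akita replicate 1 both were at 0 UMIs in the 9 S1-like cells. The mitochondrial rRNA mt-Rnr1 was also lower, at -0.94, and S1-like cells had a median mitochondrial share of 22.5% against 18.9% in S2-like cells.

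Many of these calls were lost under other settings. Kap alone passed in DESeq2, and only Kap and Cyp2e1 passed when cells were held to at most 25% mitochondrial UMIs, where Gatm, Gm2a and mt-Rnr1 changed sign and the contrast rested on Wild-type replicate 1. With the shared barcodes left out, 0 of 406 genes passed in edgeR (32 at an unadjusted p under 0.05), and Wild-type replicate 2 was then the only library with both classes. The log2 difference of Kap was 2.72 there and that of Cyp2e1 1.52.

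**Figure D2:**
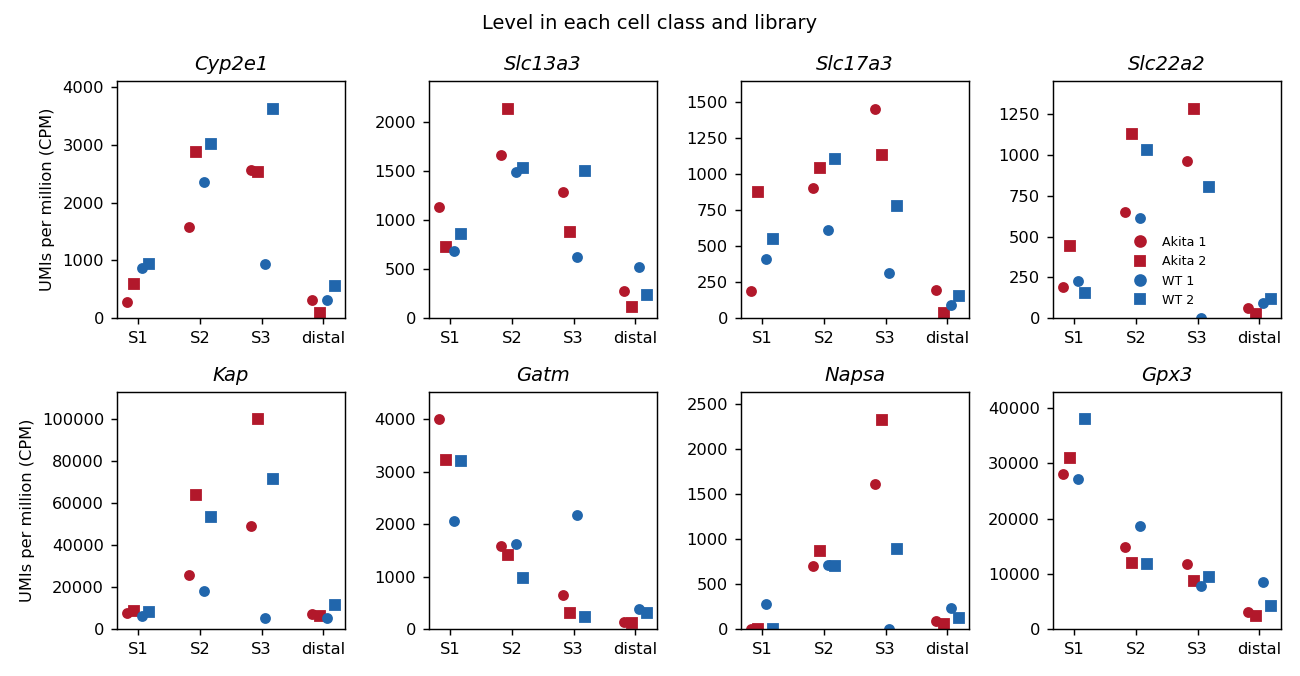
Level of 8 genes (y axis, CPM) in S1-, S2-, S3- and distal-like cells (x axis). Each point is 1 library, red for Akita and blue for wild type, circles for replicate 1 and squares for replicate 2. Sums of under 10 cells are drawn too (S1-like in both Akita libraries, S3-like in Akita replicate 1 and Wild-type replicate 1). Kap and Cyp2e1 are low in S1-like and high in S2-like cells, and Gatm and Gpx3 step down from S1-like to S2-like cells.

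The second comparison asks what sets S2-like cells apart from S3-like cells. S2-like cells had more of Gatm and of the nuclear long noncoding RNA Neat1, and less of Napsa and of Tmigd1, an adhesion protein of the brush border. These 2 higher (0.191% of genes tested) and 2 lower genes (0.191%) were all that passed of 1048 in edgeR's quasi-likelihood test. The contrast rests on Akita replicate 2 and Wild-type replicate 2, where both classes had at least 10 cells.

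Gatm stood at 1580, 1420, 1630 and 970 CPM in S2-like cells against 643, 309, 2170 and 230 CPM in S3-like cells. It was higher in S2-like cells in 3 libraries, and the exception, Wild-type replicate 1, held 2 S3-like cells with 7 Gatm UMIs. The log2 difference was 2.15 ± 0.33 (edgeR adjusted p = 6.33e-08), and Gatm also passed in DESeq2. Gatm was thus lower than in S1-like and higher than in S3-like cells, and after thinning it was seen in 68.3%, 47.4% and 10.4% of S1-, S2- and S3-like cells and 7.27% of distal-like cells.

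Neat1 stood at 1550, 2210, 1710 and 2260 CPM in S2-like against 1290, 486, 621 and 949 CPM in S3-like cells. All S2-like libraries lay above all S3-like ones, with a log2 difference of 1.57 ± 0.27 (edgeR adjusted p = 4.45e-06). After thinning, Neat1 was seen in 38.7% of S2-like, 24.7% of S3-like and 29.3% of S1-like cells. It was seen in 43.3% of distal-like cells and 38.9% of cells in no class, so it was not particular to S2-like cells. The classes also differed in the median mitochondrial share, at 18.9% in S2-like and 24.4% in S3-like cells, and Neat1 is kept in the nucleus. Whether the 2 differences are linked was not tested. With cells held to at most 25% mitochondrial UMIs, the log2 difference of Neat1 was 1.83.

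Napsa stood at 1610, 2330, 0 and 892 CPM in S3-like cells, above the 698 to 866 CPM of S2-like cells in the 3 libraries with at least 6 S3-like cells. The log2 difference was -1.18 ± 0.25 (edgeR adjusted p = 0.00127). Tmigd1 stood at 293, 320, 447 and 604 CPM in S2-like against 643, 899, 310 and 978 CPM in S3-like cells (-1.25 ± 0.30, edgeR adjusted p = 0.00981). Leaving out Akita replicate 2 ended all 4 calls (0 of 974 genes, 22 at an unadjusted p under 0.05), with Napsa at -0.54 and Gatm at 2.32. Leaving out the shared barcodes also ended them, with Napsa at -0.31, Neat1 at 0.83 and Gatm at 2.501.

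The leading genes of the contrast with S1-like cells did not pass against S3-like cells. Kap was at -0.76 ± 0.25 (edgeR adjusted p = 0.287), Cyp2e1 at -0.16 ± 0.24, Cyp4b1 at -0.06 ± 0.23 and Slc22a2 at -0.10 ± 0.25. The P450 list had a median of -0.06 with 0 of 8 passing, and the organic ion transport list a median of 0.02 with 0 of 14 passing. Over all genes, 0.191% passed in each direction, so these counts of 0 say little about the lists. Of the 3 unused S2 markers, Slc13a3 was at 0.60 ± 0.25 (edgeR adjusted p = 0.49) and Slc17a3 at 0.01 ± 0.26. Among 5 tested other S1 markers, Gatm alone passed, and Slc6a19, the main neutral amino acid transporter, and Slc2a2, the basolateral glucose transporter, were at 1.62 ± 0.55 and 1.91 ± 0.85 without passing (edgeR adjusted p = 0.301 and 0.558).

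**Figure D3:**
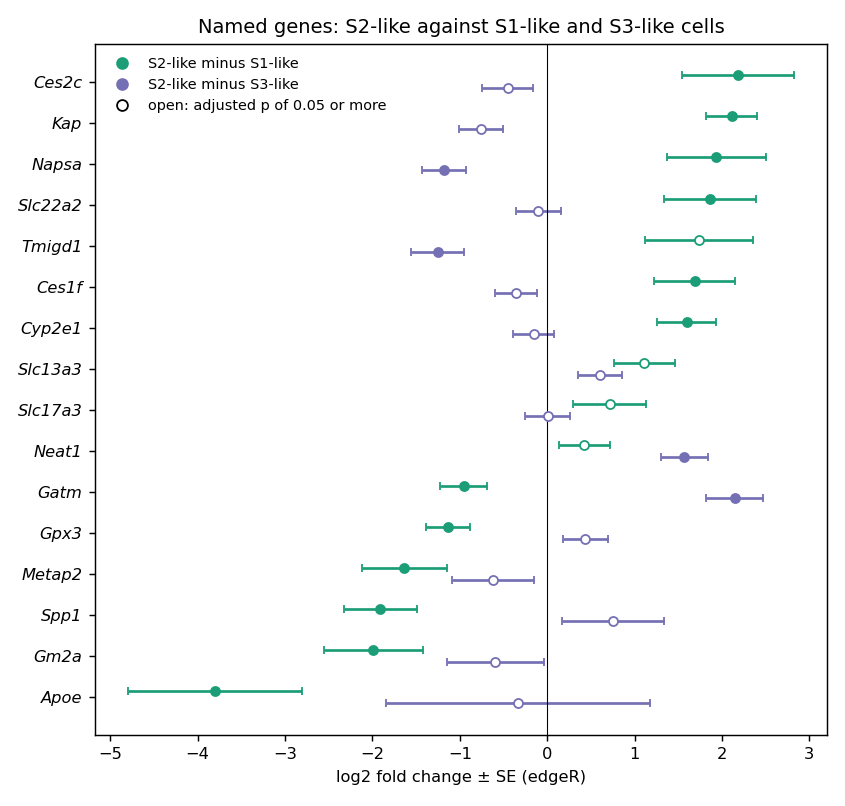
Log2 fold change (x axis) of named genes (y axis) in S2-like against S1-like cells (green) and against S3-like cells (purple). Points are edgeR estimates, bars are SE, and open points did not pass. Genes with at most 3 UMIs in the tested S1-like sums are left out. Kap, Cyp2e1 and Slc22a2 lie to the right against S1-like cells and at or left of 0 against S3-like cells, and Gatm lies on opposite sides.

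The third comparison asks what differed in S2-like cells between Akita and wild-type mice. No gene passed: 0 of 1080 (0%) in edgeR's quasi-likelihood test, with 28 at an unadjusted p under 0.05. DESeq2 gave 0 passing and 0 at an unadjusted p under 0.05, and limma-voom gave 0 and 32. With the shared barcodes left out, 0 of 409 genes passed in edgeR (6 at an unadjusted p under 0.05). Both Akita libraries lay above both wild-type libraries in 151 genes (14%) and below in 160 genes (14.8%). Among the 260 genes at 500 CPM or more in S2-like cells, the median SE was 0.358 on the log2 scale, which limits the size of difference that could be seen.

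The transporters that chose the class are given by genotype as a description and were in no edgeR fit. Their values were among the 9 exact permutation comparisons over libraries, which cannot go below 0.33, and nothing is concluded from those. Over all retained cells, Slc22a6 stood at 1450, 1370, 1060 and 1420 CPM, or 1410 ± 60.1 for Akita and 1240 ± 255 for wild-type libraries (SD, n = 2 each), and the genotypes overlapped. Slc22a8 was 162 ± 0.655 in Akita and 220 ± 48.2 CPM in wild type. Among the members, 33.3% ± 1.4 of Akita and 41.2% ± 4.28 of wild-type S2-like cells carried a Slc22a8 UMI. For Slc22a8, both Akita libraries lay below both wild-type ones over all retained cells.

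For Cyp2e1 and Slc17a3, the genotypes overlapped. Cyp2e1 was 2230 ± 925 CPM for Akita and 2680 ± 477 for wild-type libraries (SD, n = 2 each) and Slc17a3 was 973 ± 102 and 855 ± 343 CPM. Slc13a3 was 1900 ± 332 and 1510 ± 24 CPM. Slc13a3 was higher in both Akita libraries (1670 and 2140 CPM) than in both wild-type ones (1490 and 1530 CPM), with a log2 difference of 0.32 ± 0.35 that did not pass (edgeR adjusted p = 0.991). Kap overlapped, at 44800 ± 26700 CPM for Akita and 36000 ± 24900 for wild-type libraries (SD, n = 2 each).

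The 5 genes with the smallest p among those higher in both Akita libraries are named without passing (edgeR adjusted p = 0.991 for each). Vdac1, the pore of the outer mitochondrial membrane, stood at 518 and 605 CPM in Akita and 293 and 302 in wild type (log2 difference 0.91 ± 0.33). Txn1, the thiol reductase thioredoxin, stood at 766 and 973 against 472 and 493 CPM (0.84 ± 0.33). Nr1h4, the bile acid receptor FXR, stood at 428 and 237 against 140 and 175 CPM (0.99 ± 0.43). The noncoding RNA Snhg18 and the beta-defensin Defb29 were at 1.23 ± 0.52 and 1.86 ± 0.73, Defb29 on 8, 16, 5 and 2 UMIs.

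The 5 genes lower in both Akita libraries did not pass either. Atp6v1g1, a subunit of the proton pump that acidifies endosomes, stood at 113 and 166 CPM in Akita and 306 and 382 in wild type (-1.24 ± 0.39, edgeR adjusted p = 0.991). Nars, the asparaginyl-tRNA synthetase, stood at 113 and 166 against 293 and 350 CPM (-1.15 ± 0.39). The ribosomal protein gene Rps4x, Rsrp1 and the vesicle fusion gene Vamp8 were at -1.03 ± 0.41, -0.98 ± 0.36 and -0.91 ± 0.35. With each shared barcode kept in the other file instead, Vdac1, Snhg18, Rsrp1 and Rps4x changed sign, so their direction rests on how shared barcodes were placed. The other 6 kept their sign at smaller values, Txn1 at 0.10, Defb29 at 0.23, Nr1h4 at 0.52, Atp6v1g1 at -0.45, Nars at -0.82 and Vamp8 at -0.50.

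**Figure D4:**
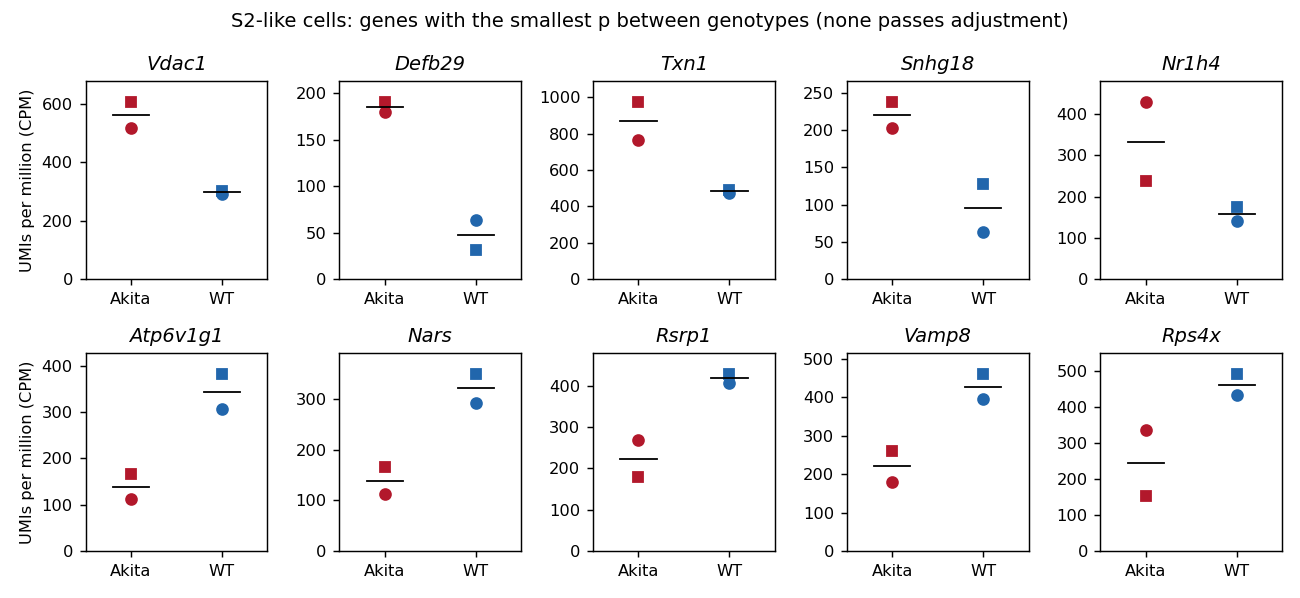
Level (y axis, CPM) in S2-like cells of the 10 genes with the smallest p between genotypes (x axis). Points are libraries, circles for replicate 1 and squares for replicate 2, and horizontal lines are means of 2. The genotypes do not overlap because the genes were picked for that, and none passed the adjusted threshold.

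By gene list, 0 members of any list passed between the genotypes. The 6 tested glycolysis genes were all at negative values, from -0.73 to -0.25, with a median of -0.55 against -0.02 over all genes tested. Of them, 3 were below wild type in both Akita libraries (14.8% over all genes), among them Aldoa at 135 and 190 against 242 and 318 CPM. Of the gluconeogenic and fructose genes, Pck1, Fbp1 and Sord were at 0.34 ± 0.53, -0.32 ± 0.41 and 0.17 ± 0.34. Groups did not overlap in 0 of 8 of that list, against 14% above and 14.8% below over all genes. With 8 genes, that count says little. The sugar transporters tested, Slc5a10 and Slc2a2, were at -0.40 and -0.29. Slc5a8 of the same list, which carries monocarboxylates such as lactate, was at 0.52.

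The 4 tested transcription factors of the proximal tubule were at positive values with a median of 0.51. Above wild type in both Akita libraries were 2 of them (14% over all genes), Maf and Nr1h4, the latter already picked for no overlap. Maf stood at 1080 and 700 against 664 and 573 CPM. For Hnf4a, a master regulator of proximal tubule identity, the genotypes overlapped, at 315 and 415 against 153 and 366 CPM. Among 15 tested organic ion transporters, 3 were above and 0 below in both Akita libraries (14% and 14.8% over all genes), with a median of 0.03. The phosphate transporter Slc34a1, the bicarbonate cotransporter Slc4a4 and the sodium pump parts Atp1b1 and Fxyd2 were at 0.19 ± 0.36, -0.05 ± 0.34, -0.04 ± 0.40 and 0.02 ± 0.39. The endocytic receptor Lrp2 (megalin) was at 0.43 ± 0.36. The injury list had 1 testable member, Spp1, at -0.93 ± 0.50, and Havcr1 (KIM-1) had 1 UMI over all members.

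Whether the genotype difference in S2-like cells was another than in S3-like cells was tested as an interaction. Of 1048 genes, 0 passed (0%) in edgeR's quasi-likelihood test, with 26 at an unadjusted p under 0.05. The counts were 0 in DESeq2 (1 unadjusted) and 0 in limma-voom (51 unadjusted). Slc13a3 had an interaction of 1.18 ± 0.59 (edgeR adjusted p = 0.99) and Kap of -0.02 ± 0.89. The S3-like sums in this fit came from Akita replicate 2 and Wild-type replicate 2 only, so the S3-like genotype difference was 1 library against 1, and the fit had 1 residual degree of freedom. The same test against S1-like cells could not be made, since no Akita library had 10 S1-like cells.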

How the data were processed

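The files held UMI counts per gene and cell barcode, deposited by the authors without normalization. The submitters' processing notes name GRCm38, featureCounts 1.6.0, STAR 2.5.2b and UMI-tools 0.5.3. The members and gene lists were chosen with earlier results of these data known, and 0.0292% of UMIs had no gene symbol. Barcodes with at least 11 identical bases were left out. No doublet caller was run, and cells above the 95th percentile of UMIs were left out as an alternative. Counts were summed per library and class (at least 10 cells) and tested with edgeR 4.0.16 in R 4.3.3 (TMM scaling, library as a block between classes, Benjamini-Hochberg adjustment, threshold 0.05). The 15 rule genes were removed before each fit. DESeq2 1.42.0 and limma 3.58.1 were alternatives. The fits were tested on simulated data with 1 fixed spread and no shared barcodes, unlike these data. Of the 2-fold changes tested, 17 of 100 were recovered against S1-like cells, 38 of 100 against S3-like cells and 44 of 97 between genotypes. For 4-fold changes these were 63 of 98, 90 of 100 and 81 of 96. False calls numbered 4, 5 and 5 in that order. Many 2-fold differences would thus be missed. Named genes were, of those that passed with at least 50 CPM, not mitochondrial and on 1 side in each library with both sums, the 10 in each direction with the largest log2 change. Where under 5 passed between genotypes, they were the 5 in each direction with the smallest p and no overlap. The 4 members of each list highest in S2-like cells, and the markers, could be named too. Aldoa, Havcr1 and mt-Rnr1 were singled out after their values were seen. Binomial intervals are Clopper-Pearson intervals and cover counting error only. Mice were not paired by replicate number in the main fits, and that number was tried as a block between genotypes. S3-like cells were fewer in replicate 1 than in replicate 2 of both genotypes (Akita 6 and 53, wild type 2 and 32). The source of this was not tested. Some members of the gene lists are not reported here by name.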

Additional observations from a re-analysis of the deposited data

How the results depend on the processing

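Against S1-like cells, 19 genes passed. The count was 101 with the files as deposited, 0 without shared barcodes, 2 at most 25% mitochondrial UMIs, 8 with a score at least 2 above the others, 5 after thinning and 1 in DESeq2. It was 41 with sums of at least 5 cells and 31 with Akita replicate 2 and Wild-type replicate 1 summed, both chosen after seeing the data. Leaving out 1 library gave 11 (Akita replicate 2) to 32 (Wild-type replicate 1). Against S3-like cells, 4 passed. The count was 65 as deposited, 0 without shared barcodes, 10 at 500 genes or more, 7 at most 25% mitochondrial UMIs, 10 with a score of at least 3, 2 after thinning, 1 in DESeq2, 2 without the filter on low counts and 10 with those libraries summed. Leaving out 1 library gave 0 (Akita replicate 2) to 12 (Wild-type replicate 1). Neither contrast could be fitted without Wild-type replicate 2, nor that with S1-like cells at 500 genes or a score of at least 3. For these losses and gains the cause was not tested. Between genotypes, 0 genes passed in edgeR. Leaving out 1 library gave 0 to 1, with Rpl31 passing without Wild-type replicate 1 (log2 difference 3.43) and Gstp-ps without Wild-type replicate 2 (-3.67). The replicate block gave 0 (53 at an unadjusted p under 0.05), and in limma-voom, added after seeing the data, 0 (55).

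Some single genes changed sign. With shared barcodes kept in the other file, chosen after seeing the data, Rps4x was at 0.21, Rsrp1 at 0.16, Snhg18 at -0.71 and Vdac1 at -0.12. At most 25% mitochondrial UMIs put Gatm at 0.0145, mt-Rnr1 at 0.0064 and Gm2a at 0.24 against S1-like cells. Against S3-like cells, Cyp2e1 was at 0.55 after thinning and Slc13a3 from -0.011 (without Akita replicate 2) to 0.6302 when 1 library was left out. Slc17a3 was at -0.29 as deposited, -0.13 with a score at least 2 above, -0.036 without the deepest cells, -0.0021 with DESeq2 size factors, -0.0014 without mitochondrial genes, -0.0591 with sums of at least 5 cells and -0.14 with the libraries summed.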

Other observations

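Maf, a transcription factor of the proximal tubule, stood between its S1- and S3-like levels in S2-like cells, at 723 CPM over all members against 1330 and 375 CPM. The log2 difference was -0.97 ± 0.34 against S1-like and 0.86 ± 0.34 against S3-like cells, and neither passed (edgeR adjusted p = 0.119 and 0.431). The cathepsin Ctsl was at 1.06 ± 0.38 and 0.84 ± 0.27 (edgeR adjusted p = 0.135 and 0.287).

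Of the 208 members, 50 had a barcode 1 base away from another retained barcode.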
